A study of Mus musculus with 6 samples.

Results

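The 73 genes described here are named for the mitochondrial ribosome, mitochondrial translation factors, and the machinery that carries proteins across the mitochondrial membranes. They were chosen by symbol alone, as every gene of the deposited table whose name is Mrpl, Mrps, Tomm or Timm followed by a number, or that is one of the translation factor genes Tufm, Tsfm, Gfm1, Gfm2, Mtif2 and Mtif3. The table holds 9295 genes. Of these, 33 name the large and 19 the small ribosomal subunit (52 in all), and 3 are translation factors (Tufm, Gfm1 and Mtif2). Another 18 are named for protein import (6 Tomm and 12 Timm genes). Mrps36 and Tomm34 carry such names but are known for other roles, given below, and stay in every count. The mouse RefSeq annotation has 109 protein-coding genes that match the same rule, and the remaining ones were not analysed here. The RNA came from bone marrow of mice with leukemia, 3 libraries labelled KO with the genotype PAPOLA KO and 3 labelled Con with the genotype PAPOLA flox/flox, in which the gene is flanked by recombination sites. All 6 carry the cell type label leukemia, and the Cre driver, the leukemia oncogene, the age, and whether each library is a separate animal, are not stated in the labels. Papola encodes the canonical nuclear poly(A) polymerase, which adds the tail to the end of newly made messenger RNA, and the comparison asks how its knockout changes gene expression in this leukemia.

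Mitochondria keep a small genome that encodes a few core subunits of the respiratory chain, and a ribosome of their own translates them. All protein subunits of that ribosome, as well as nearly all other mitochondrial proteins, are encoded in the nucleus, made in the cytosol and imported. Precursors cross the outer membrane through the translocase of the outer membrane (TOM, Tomm genes). They are then sorted by the presequence translocase (TIM23) or the carrier translocase (TIM22) of the inner membrane, and small Tim proteins escort hydrophobic precursors across the space between the membranes. Acute myeloid leukemia cells are known to depend on mitochondrial translation and respiration.

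The 6 libraries held 8875022 to 9768143 counts in KO and 11253932 to 11436216 in Con, and 8358 genes passed a filter on low counts and were tested, all 73 members among them, none with fewer than 96 counts in any library. Differences were tested with edgeR's quasi-likelihood test after TMM scaling, which sets library levels by the bulk of genes, and p-values were adjusted by the Benjamini-Hochberg method over all genes tested. The threshold was 0.05, and fold changes are log2, KO over Con. Levels are CPM, the counts divided by the scaled library size. Papola itself was at 339 ± 23.8 CPM in KO and 291 ± 6.42 CPM in Con (SD, n = 3 each; log2 fold change 0.22, adjusted p = 0.0291), and at -0.13 with library size as the only scaling (adjusted p = 0.187). The Papola call was lost in 8 of the 17 alternatives. The gene was thus not lower in the libraries labelled KO. The deleted exons are not stated and counts of a whole gene do not show them, so KO and Con below mean the libraries labelled so, and every direction rests on those labels. Cell marker lists are given next, where 39.6% of all genes tested were higher and 42.4% lower in KO. Late neutrophil genes (17 of 17 tested higher) took 15.8% to 18.2% of counts in KO and 1.01% to 1.10% in Con. Erythroid genes (13 of 14 higher) took 1.62% to 2.28% and 0.0912% to 0.121%. Of 8 genes of leukemia and progenitor cells 5 were higher (Mpo, Flt3, Spi1, Cebpa and Ptprc) and 2 lower (Kit and Hoxa9), and the list took 0.380% to 0.429% of counts in KO and 0.133% to 0.138% in Con. Mpo made up 2663 of the 4647 CPM of this list in KO and 280.5 of 1189 CPM in Con. Ptprc made up 1024 CPM in KO and 461 CPM in Con. Monocyte and macrophage genes went both ways, 9 of 14 higher and 5 lower. Among them Cd68 was at 179 CPM in KO and 1328 CPM in Con and Adgre1 at 149 CPM in KO and 945 CPM in Con, while C1qa was at 210.4 CPM in KO and 1.25 CPM in Con, and the list took 0.307% to 0.434% of counts in KO and 0.316% to 0.384% in Con. Genes of B cells (4 of 6 higher, none lower) took 0.00817% to 0.0227% of counts in KO and 0.00495% to 0.00895% in Con. Those of T and NK cells (7 of 9 higher, 2 lower) took 0.0180% to 0.01815% in KO and 0.0723% to 0.0846% in Con. The 2 lower ones were Gzmb (7.10 CPM in KO, 303 CPM in Con) and Il7r (20.9 and 318 CPM). Genes of stroma and endothelium (6 of 7 higher, 1 lower) took 0.0289% to 0.0478% in KO and 0.0424% to 0.0452% in Con. The lower one was Pecam1 (79.3 CPM in KO, 371 CPM in Con). The part of these cell markers in the values below was not tested, and in bulk RNA fewer cells of a type and less RNA per cell cannot be told apart. Con replicates 2 and 3 were much alike, with a chi-square of their counts over its degrees of freedom of 1.68, where every other pair inside a group gave 17.7 to 23.7. Summing them as 1 sample left 13 members higher and 23 lower, where 38.0% of the 8419 genes tested there were higher and 39.9% lower.

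Ribosomal and import genes did not move as a block after TMM scaling. With library size as the only scaling, 5 of the 73 members were higher and 52 lower. Of all genes tested, 29.8% were higher and 53.55% lower on that scaling. Under TMM, 14 of the 73 members were higher and 25 lower in KO, and 34 passed in neither direction. The median log2 fold change of the 73 was -0.08, with a range of -1.65 to 2.19. Across all genes tested, 82% passed, 39.6% higher and 42.4% lower, with a median of -0.06. The shares among the members were 19.2% higher and 34.2% lower. Only 3 members fell at least 2-fold (Mrpl45, Mrps18b and Mtif2) and 3 rose at least 2-fold (Mrpl33, Mrpl48 and Mrps21). Over all genes tested, 23.8% fell and 22.8% rose by that much. The quartiles of the ribosomal fold changes were -0.32 and 0.19, those of the import genes -0.41 and 0.15, and those of all genes -0.94 and 0.90. In 29 members all KO values lay below all Con values and in 18 above them (44% and 40.5% of all genes tested), and in 26 the groups overlapped.

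**Figure D1:**
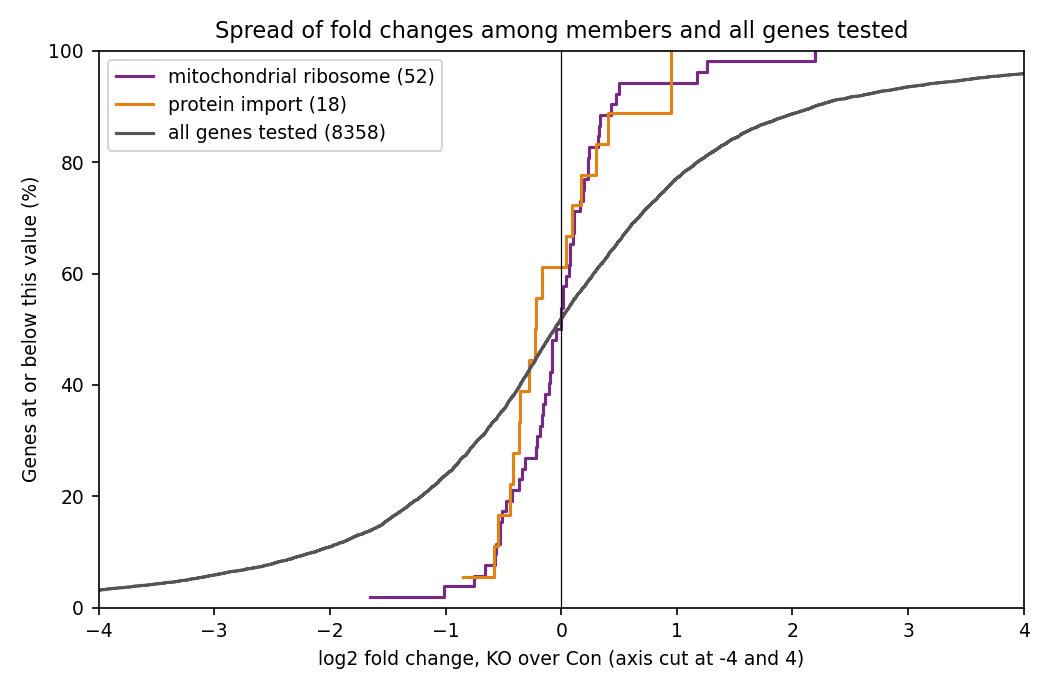
Cumulative share of genes (vertical axis, %) at or below each log2 fold change of KO over Con (horizontal axis) for the 52 ribosomal genes, the 18 import genes and all 8358 genes tested, after TMM scaling. The ribosomal and import curves are steeper than the curve of all genes, with quartiles of -0.32 and 0.19 and of -0.41 and 0.15, against -0.94 and 0.90 for all genes.

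**Figure D2:**
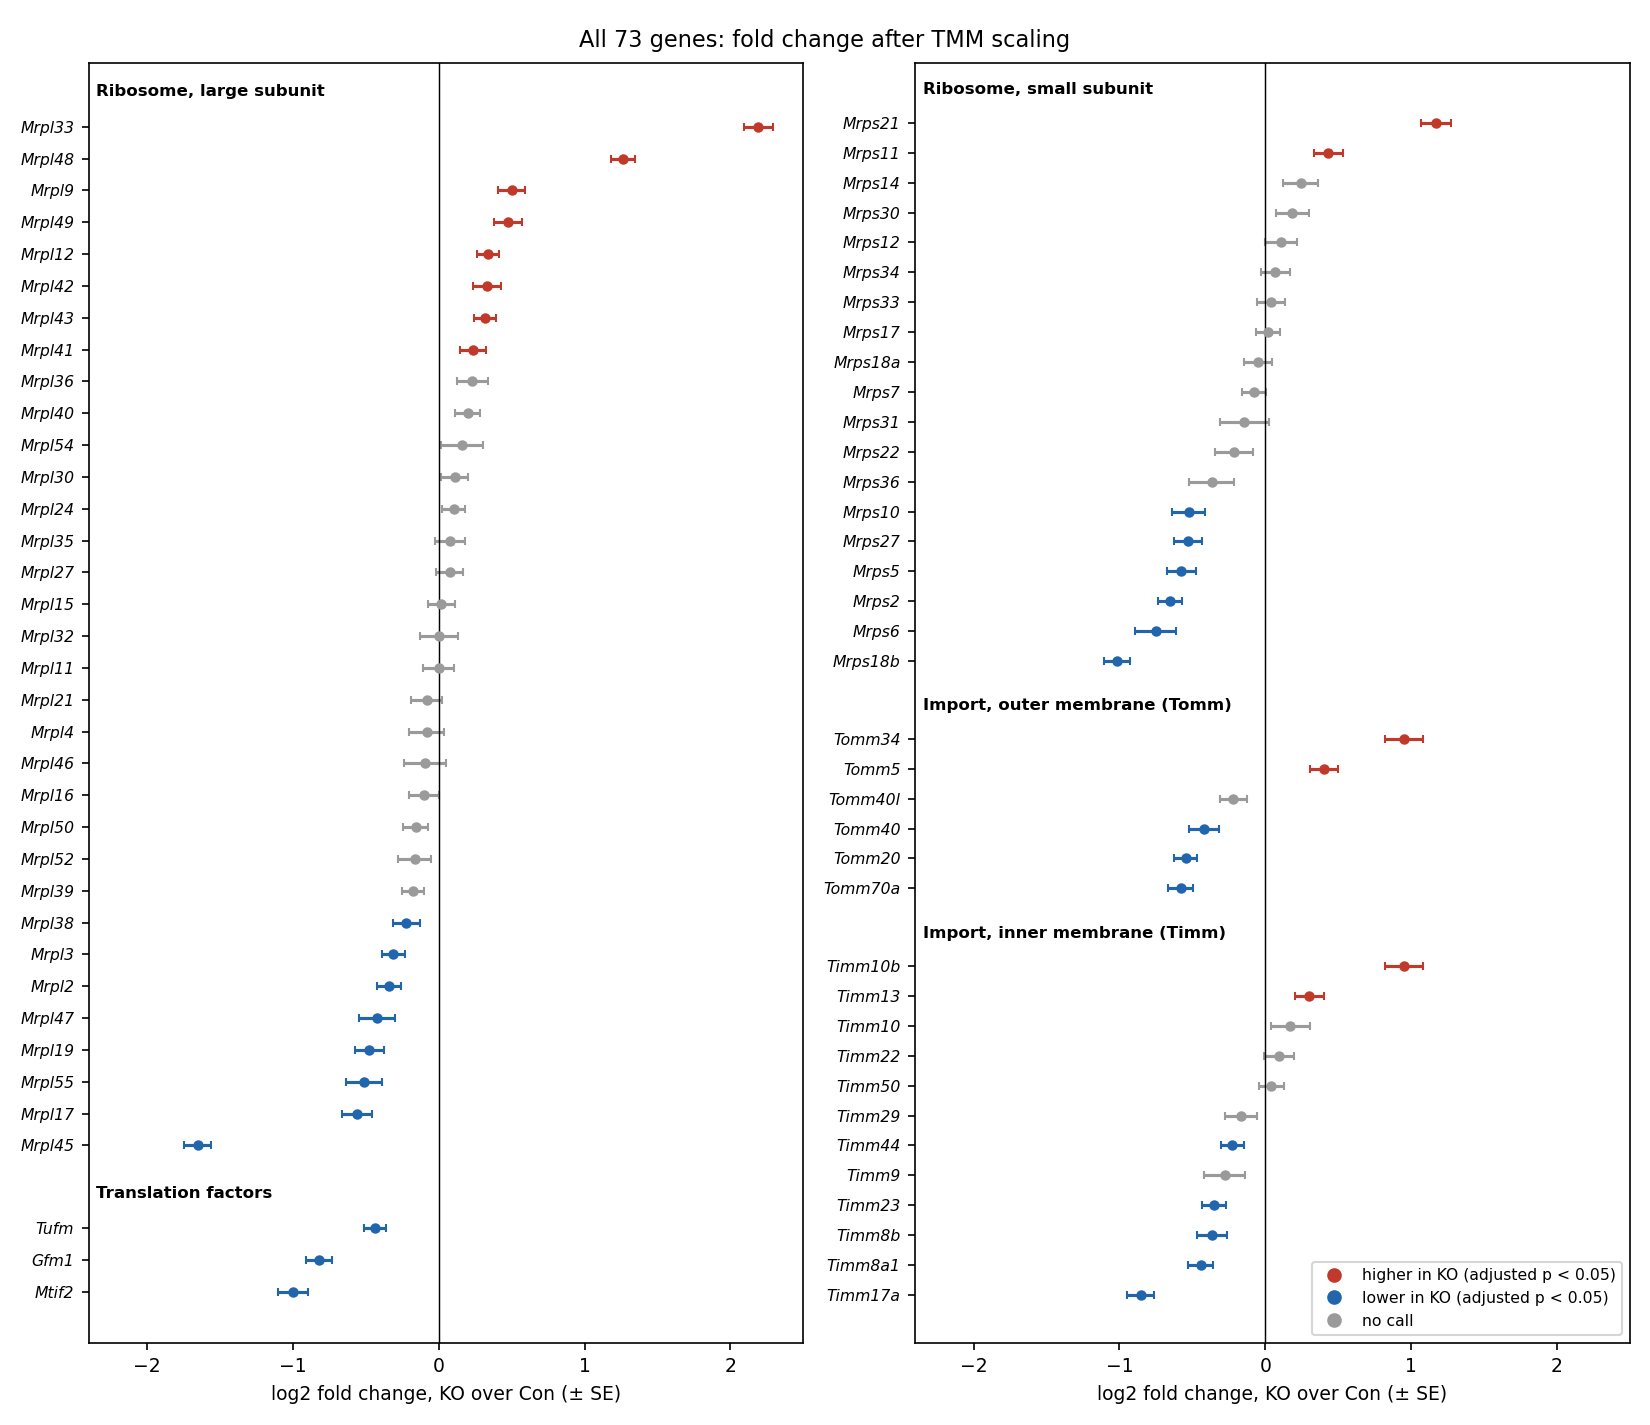
log2 fold change of KO over Con after TMM scaling (horizontal axis) for each of the 73 members, by group, where points are edgeR estimates from 3 KO and 3 Con libraries and bars are 1 standard error. Colour gives the call at an adjusted p of 0.05, and Mrpl33 at 2.19 and Mrpl45 at -1.65 stand at the ends.

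In the large subunit, 8 of 33 genes were higher and 8 lower in KO, and 17 passed in neither direction. That is 24.2% each way, where 39.6% of all genes tested were higher and 42.4% lower. The median of the subunit was 0.00 after TMM scaling, 0.05 with the RLE factors of DESeq2 and -0.35 with library size only. The range ran from -1.65 for Mrpl45 to 2.19 for Mrpl33. Mrpl45 (gene ID 67036), a protein specific to mitochondria that sits near the exit of the ribosomal tunnel and anchors the ribosome to the inner membrane, was at 50.4, 50.6 and 43.4 CPM in KO replicates 1, 2 and 3 and at 141, 161 and 153 CPM in Con replicates 1, 2 and 3. Each KO library lay below every Con library by a wide margin. Its means were 48.1 ± 4.10 CPM in KO and 152 ± 10.2 CPM in Con (SD, n = 3 each), a 3.15-fold lower level in KO (log2 fold change -1.65, SE 0.10, adjusted p = 2.75e-07). Among all genes tested, 13.8% had a log2 fold change at or below that of Mrpl45.

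Mrpl33 (66845), a small protein with a bacterial counterpart, was at 186, 226 and 189 CPM in KO and at 45.2, 43.5 and 42.8 CPM in Con. The 3 KO values were all far above the 3 Con values, which were nearly equal. The means were 200.2 ± 22.1 CPM in KO and 43.8 ± 1.21 CPM in Con, and the level was 4.57-fold higher in KO (log2 fold change 2.19, SE 0.10, adjusted p = 5.75e-08). A log2 fold change at or above this one was found in 9.99% of all genes tested. Mrpl33 overlaps a long non-coding RNA gene in RefSeq, and the strand that the counting used is not stated. Mrpl48 (52443), a subunit of the central protuberance, was at 76.9, 71.4 and 70.4 CPM in KO and at 31.2, 29.3 and 30.6 CPM in Con. The groups were far apart beside the spread inside each (log2 fold change 1.26, SE 0.08, adjusted p = 6.16e-07). It overlaps Rab6a, which was not analysed here.

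The promoters of the 2 large-subunit genes at the ends of the range are shown because they differ in the motifs they hold for factors known to drive nuclear genes of mitochondria. Sequences are from RefSeq, build GRCm38.p6, 5′ to 3′ on the strand of the gene, from 250 bases before to 50 bases after the start. Capitals mark matches to the motif of nuclear respiratory factor 1, NRF1 (GCGCNTGCG, 3 matches in Mrpl45), and to the ETS motif bound by GABP (CCGGAAGT, 1 match in Mrpl33), on either strand.
Mrpl45 (chr11:97315466-97315765, plus strand): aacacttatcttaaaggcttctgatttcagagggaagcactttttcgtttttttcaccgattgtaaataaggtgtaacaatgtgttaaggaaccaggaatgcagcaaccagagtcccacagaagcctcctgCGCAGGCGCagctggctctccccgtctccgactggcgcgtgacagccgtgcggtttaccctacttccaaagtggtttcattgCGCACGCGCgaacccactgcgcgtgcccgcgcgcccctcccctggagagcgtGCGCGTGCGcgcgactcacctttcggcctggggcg
Mrpl33 (chr5:31613701-31614000, plus strand): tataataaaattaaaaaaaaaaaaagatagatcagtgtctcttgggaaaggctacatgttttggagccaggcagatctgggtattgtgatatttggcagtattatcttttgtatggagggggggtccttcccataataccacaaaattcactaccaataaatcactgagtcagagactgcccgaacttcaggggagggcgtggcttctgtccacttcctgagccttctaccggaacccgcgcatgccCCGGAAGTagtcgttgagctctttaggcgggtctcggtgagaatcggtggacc

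The first bases of the NRF1 matches in Mrpl45 lay at -119, -37 and 15 relative to the start, and that of the ETS match in Mrpl33 at -3. Mrpl45 held more NRF1 matches than any other member except Mrpl32, which also held 3 and was at 28.9 ± 5.01 CPM in KO and 28.9 ± 1.64 CPM in Con (log2 fold change 0.00, adjusted p = 0.999).

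Other large-subunit genes moved by less. Mrpl9 was at 79.2 ± 5.34 CPM in KO and 55.9 ± 4.52 CPM in Con (0.50, adjusted p = 0.000683), and Mrpl49 at 56.3 ± 5.15 and 40.4 ± 1.53 CPM (0.48, adjusted p = 0.00106). Both passed the threshold after TMM scaling but not with library size as the only scaling (0.14 and 0.12, adjusted p = 0.219 and 0.279). Mrpl12, a stalk protein also reported to bind the mitochondrial RNA polymerase, Mrpl42, Mrpl43 and Mrpl41 were higher by 0.34 to 0.24, and each of these 4 was below 0 with library size only. The Mrpl41 call was lost in 10 of the 17 alternatives, and those of the other three in that one. The lower genes apart from Mrpl45 were Mrpl17 (-0.56, adjusted p = 0.000634), Mrpl55 (-0.51), Mrpl19 (-0.48), Mrpl47 (-0.43), Mrpl2 (-0.34), Mrpl3 (-0.31) and Mrpl38 (-0.22, adjusted p = 0.0456). The Mrpl38 call was lost in 11 of the 17 alternatives, RLE factors among them (-0.17, adjusted p = 0.108), and that of Mrpl47 without Con replicate 2 (adjusted p = 0.069). Mrpl17, whose bacterial counterpart lies beside the tunnel exit, was at 45.1, 45.4 and 36.7 CPM in KO and at 65.7, 59.2 and 63.0 CPM in Con, with no overlap.

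In the small subunit 2 of 19 genes were higher (10.5%) and 6 lower (31.6%) in KO, and 11 passed in neither direction. Of all genes tested, 39.6% were higher and 42.4% lower. The median of the subunit was -0.08 after TMM scaling and below 0 under each of the other 4 scalings. That of all genes tested (-0.06 with TMM) was also below 0 under all 5 scalings. Mrps18b (66973), one of 3 forms of the S18 protein that mammals carry, was at 25.4, 23.9 and 23.3 CPM in KO and at 48.0, 48.9 and 49.98 CPM in Con. The spread inside each group was small beside the gap, and KO was 2.02-fold lower (log2 fold change -1.02, SE 0.09, adjusted p = 3.9e-06). The related Mrps18a was at 39.8 ± 3.54 CPM in KO and 41.2 ± 0.873 CPM in Con, with overlapping groups (-0.05, adjusted p = 0.64). Mrps6 (-0.75, adjusted p = 0.000635), Mrps2 (-0.66, adjusted p = 4.87e-05), Mrps5 (-0.57, adjusted p = 0.000437), Mrps27 (-0.53) and Mrps10 (-0.53) also fell. Mrps2 and Mrps5, core proteins with bacterial counterparts, lay at 32.2 ± 0.547 and 34.0 ± 1.71 CPM in KO, against 50.7 ± 1.26 and 50.6 ± 4.76 CPM in Con. Mrps6 overlaps another gene, Slc5a3, that was not analysed here.

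Mrps21 (66292), a small protein with a bacterial counterpart, went the other way. It was at 117, 125 and 104 CPM in KO and at 48.6, 48.8 and 56.3 CPM in Con. No KO value came near the Con range (2.25-fold higher, log2 fold change 1.17, SE 0.10, adjusted p = 3.35e-06). Mrps11 was higher at 35.2 ± 2.70 CPM in KO, against 26.1 ± 0.998 CPM in Con (0.43, adjusted p = 0.00281), and was past the threshold under TMM but not with library size only (0.08, adjusted p = 0.515). Mrps36, which is now known as a subunit of the oxoglutarate dehydrogenase complex and not of the ribosome, was at 25.3 ± 5.47 CPM in KO and 32.5 ± 2.32 CPM in Con (-0.37, adjusted p = 0.0504). The promoter of Mrps21 is shown as that of the small-subunit gene that rose most, with its single NRF1 match, which begins at -91, in capitals.
Mrps21 (chr3:95871465-95871764, minus strand): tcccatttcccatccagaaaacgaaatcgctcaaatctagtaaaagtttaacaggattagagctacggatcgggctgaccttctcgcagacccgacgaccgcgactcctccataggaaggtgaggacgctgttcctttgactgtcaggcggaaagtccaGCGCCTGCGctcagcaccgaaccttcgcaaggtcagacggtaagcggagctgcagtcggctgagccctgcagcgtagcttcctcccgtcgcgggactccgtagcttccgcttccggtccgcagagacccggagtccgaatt

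**Figure D3:**
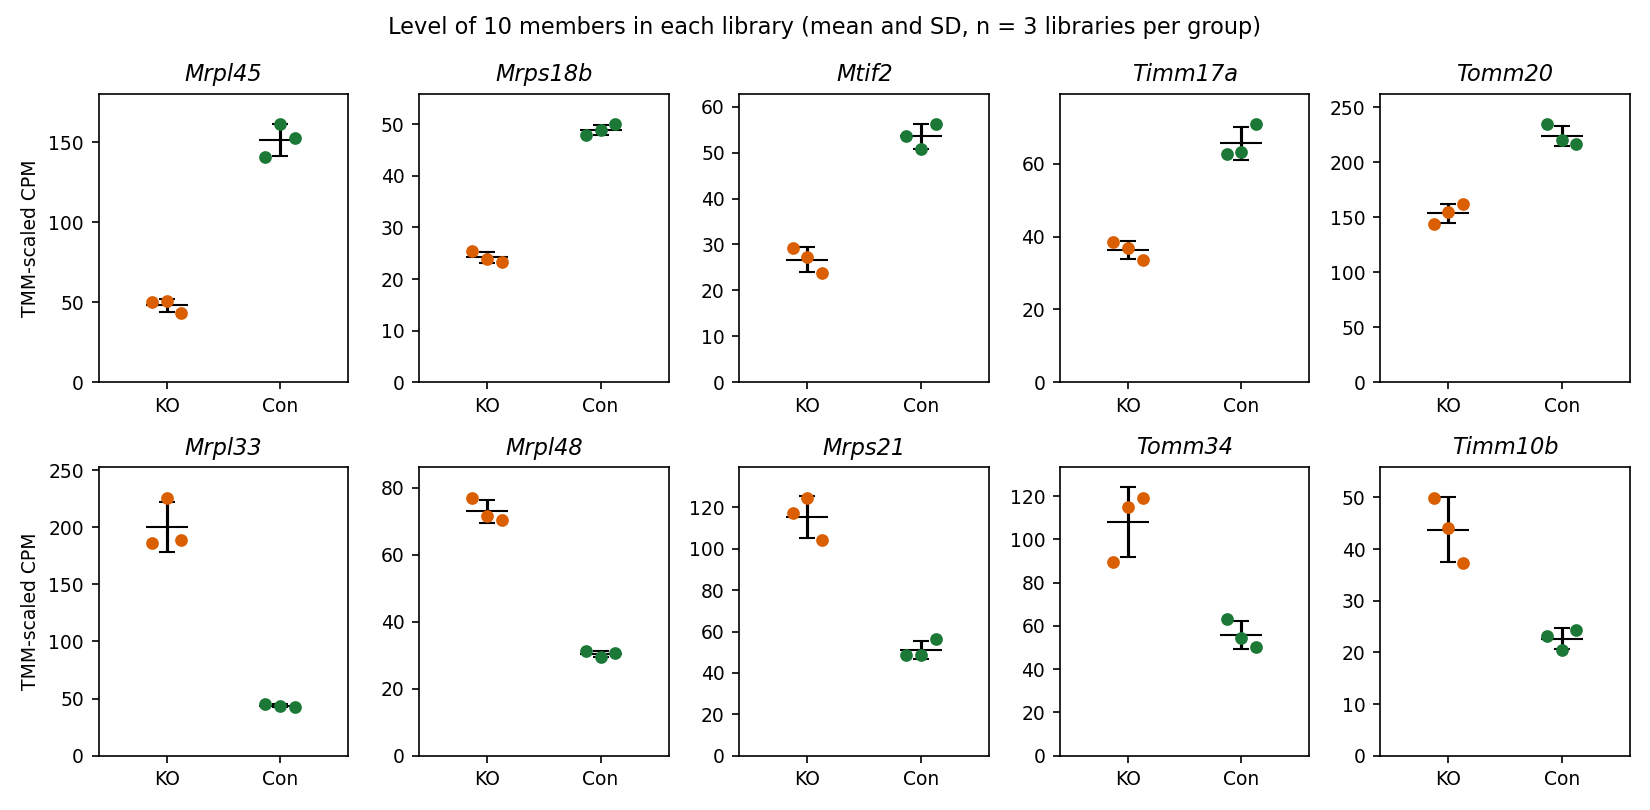
TMM-scaled CPM (vertical axis, starting at 0) of 10 members in each KO and Con library, KO on the left, with the mean and SD over 3 libraries. Mrpl45, Mrps18b, Mtif2, Timm17a and Tomm20 (top) lay lower in every KO library than in any Con library, and Mrpl33, Mrpl48, Mrps21, Tomm34 and Timm10b (bottom) lay higher.

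The 3 translation factor genes in the table were all lower in KO, as were 42.4% of all genes tested. Mtif2 (76784), the initiation factor that brings the first transfer RNA to the ribosome, was at 29.2, 27.3 and 23.7 CPM in KO and at 53.7, 50.8 and 56.1 CPM in Con (log2 fold change -1.001, SE 0.10, adjusted p = 1.22e-05). Gfm1 (28030), the elongation factor that moves the ribosome along its message, was at 49.4, 41.7 and 45.2 CPM in KO and at 81.2, 78.3 and 81.4 CPM in Con (-0.82, SE 0.09, adjusted p = 1.61e-05). In both genes the groups were clearly apart. Tufm (233870), the factor that delivers aminoacyl transfer RNA and the most abundant of the 3, was at 101, 105 and 110.0 CPM in KO and at 140.1, 143 and 145 CPM in Con (-0.44, SE 0.07, adjusted p = 0.00039). Summed, the 3 genes stood at 178 ± 2.75 CPM in KO and 277 ± 5.35 CPM in Con. All 3 stayed below 0 and past the threshold under each of the 17 alternatives tried, and with library size only their median was -1.18. Gfm1 overlaps Lxn, which was also lower in KO (-0.56, adjusted p = 0.000729), and reads of the pair could not be told apart by strand.

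Gfm1 and Tufm share a feature at the start of transcription. Each held an ETS match within 2 bases of the RefSeq start, as did the ribosomal gene Mrpl52 on the reverse strand, and the match in Mrpl33 above began at -3. The 60 bases around the start, of which 40 lie before it, are given for these 3 genes with the match in capitals.
Gfm1 (chr3:67430075-67430134, plus strand): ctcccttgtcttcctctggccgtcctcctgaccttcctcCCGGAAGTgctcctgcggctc
Tufm (chr7:126487315-126487374, plus strand): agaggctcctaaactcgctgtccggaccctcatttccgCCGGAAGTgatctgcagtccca
Mrpl52 (chr14:54426869-54426928, plus strand): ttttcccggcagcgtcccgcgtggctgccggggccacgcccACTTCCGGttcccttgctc

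These genes did not share a direction. Gfm1 and Tufm were lower, Mrpl33 was higher, and Mrpl52 was at 25.6 ± 1.99 CPM in KO and 28.7 ± 2.28 CPM in Con, with overlapping groups (-0.17, adjusted p = 0.194).

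Among the 18 import genes 4 were higher (22.2%) and 8 lower (44.4%) in KO, and 6 passed in neither direction. Of all genes tested, 39.6% were higher and 42.4% lower. The import median was -0.22 and below 0 under all 5 scalings, as was that of all genes tested (-0.06 with TMM). The receptors and the channel of the outer membrane fell together. Tomm20 (67952), the receptor for presequences, was at 144, 154 and 162 CPM in KO and at 234, 220.0 and 217 CPM in Con (log2 fold change -0.55, SE 0.08, adjusted p = 0.000139). Tomm70a (28185), the receptor for carrier precursors, was at 109, 108 and 93.0 CPM in KO and at 160.4, 152 and 151 CPM in Con (-0.58, SE 0.09, adjusted p = 0.000167). Tomm40 (53333), which forms the channel, was at 51.3, 43.7 and 42.2 CPM in KO and at 65.0, 56.7 and 62.0 CPM in Con (-0.42, SE 0.10, adjusted p = 0.00355). No library of one group reached into the range of the other in any of these 3 genes. The related Tomm40l was at 31.6 ± 1.76 CPM in KO and 36.8 ± 1.93 CPM in Con (-0.22, adjusted p = 0.0566). The central receptor gene Tomm22 was not analysed here.

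Of the Tomm genes, 2 rose. Tomm5, a small subunit of the TOM complex, was at 57.8 ± 5.26 CPM in KO and 43.7 ± 2.35 CPM in Con (0.40, adjusted p = 0.00296), a call not reached with library size only (0.05). Tomm34 (67145) carries the name of the complex but is known as a soluble cytosolic co-chaperone of Hsp70 and Hsp90. It was at 89.6, 115 and 119 CPM in KO and at 63.0, 54.2 and 50.1 CPM in Con. Its lowest KO library still lay well above its highest Con library (log2 fold change 0.95, SE 0.13, adjusted p = 8.34e-05).

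Of the presequence translocase, 3 of 4 genes fell and none rose, where 42.4% of all genes tested were lower and 39.6% higher. Timm17a (21854), which forms the channel with Timm23, was at 38.4, 36.9 and 33.5 CPM in KO and at 62.6, 63.3 and 70.8 CPM in Con (-0.85, SE 0.09, adjusted p = 1.96e-05), the lowest fold change among the import genes. Timm23 (53600) was at 109, 125 and 124 CPM in KO and at 151, 155 and 152 CPM in Con (-0.35, SE 0.08, adjusted p = 0.00275). Timm44, which tethers the import motor to the channel, was at 54.6 ± 2.69 CPM in KO and 63.9 ± 0.54 CPM in Con (-0.23, adjusted p = 0.0228). The Timm44 call did not hold with RLE factors (-0.17, adjusted p = 0.0691), with DESeq2, with any single Con library left out, or with Con replicates 2 and 3 summed. Timm50, the receptor of the complex, was at 42.4 ± 0.963 CPM in KO and 41.2 ± 1.63 CPM in Con (0.04, adjusted p = 0.65), and at -0.31 with library size only. The carrier translocase genes Timm22 (0.10, adjusted p = 0.419) and Timm29 (-0.17, adjusted p = 0.179) did not pass.

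The small Tim genes split. Timm8a1 was at 37.4 ± 2.19 CPM in KO and 50.9 ± 0.93 CPM in Con (-0.44, adjusted p = 0.000879), and Timm8b at 38.8 ± 2.73 and 49.9 ± 4.32 CPM (-0.36, adjusted p = 0.00724; adjusted p = 0.0502 without Con replicate 3). Their partner in the intermembrane space, Timm13, was at 74.9, 93.5 and 80.0 CPM in KO and at 63.6, 67.4 and 70.5 CPM in Con (0.30, adjusted p = 0.018). That call was lost with upper-quartile scaling (adjusted p = 0.0749), without KO replicate 2 (0.0599) and without Con replicate 1 (0.062), and the sign turned with library size only (-0.05, adjusted p = 0.653). Timm10b (14356), a small Tim bound to the carrier translocase, was at 49.9, 44.0 and 37.3 CPM in KO and at 23.1, 20.4 and 24.4 CPM in Con. KO was higher in every library (0.95, SE 0.13, adjusted p = 8.11e-05). Timm10b overlaps Dnhd1, which was higher too, at 14.6 CPM in KO and 3.58 CPM in Con (2.03, adjusted p = 7.07e-06). Timm9 (-0.28, adjusted p = 0.0883) and Timm10 (0.17, adjusted p = 0.241) did not pass.

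Added up, the 52 ribosomal genes stood at 2393, 2574 and 2342 CPM in KO and at 2363, 2306 and 2345 CPM in Con. These sums overlapped. The import genes stood at 1045, 1123 and 1072 CPM in KO and at 1249, 1203 and 1215 CPM in Con, with every KO library lower. Where no scaling factor was applied, the ribosomal genes took 0.205% to 0.232% of counts in KO and 0.257% to 0.276% in Con, and the import genes 0.0916% to 0.101% and 0.134% to 0.146%. On that footing both sums were lower in each KO library. Late neutrophil genes took 15.8% to 18.2% of counts in KO, and the part of that share in these sums was not tested. TMM factors were 0.876 to 0.9003 in KO and 1.11 to 1.17 in Con, and library size alone moved the median of all genes by -0.35 on the log2 scale. It also gave 5 members higher (Mrpl33, Mrpl48, Mrps21, Tomm34 and Timm10b) and 52 lower, and 29.8% of all genes tested higher and 53.55% lower. The median of the members less that of all genes was -0.02 under TMM and -0.03 under library size. Under 5 scalings 48 of 73 members kept the sign of their fold change, a count that was not made for all genes tested.

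**Figure D4:**
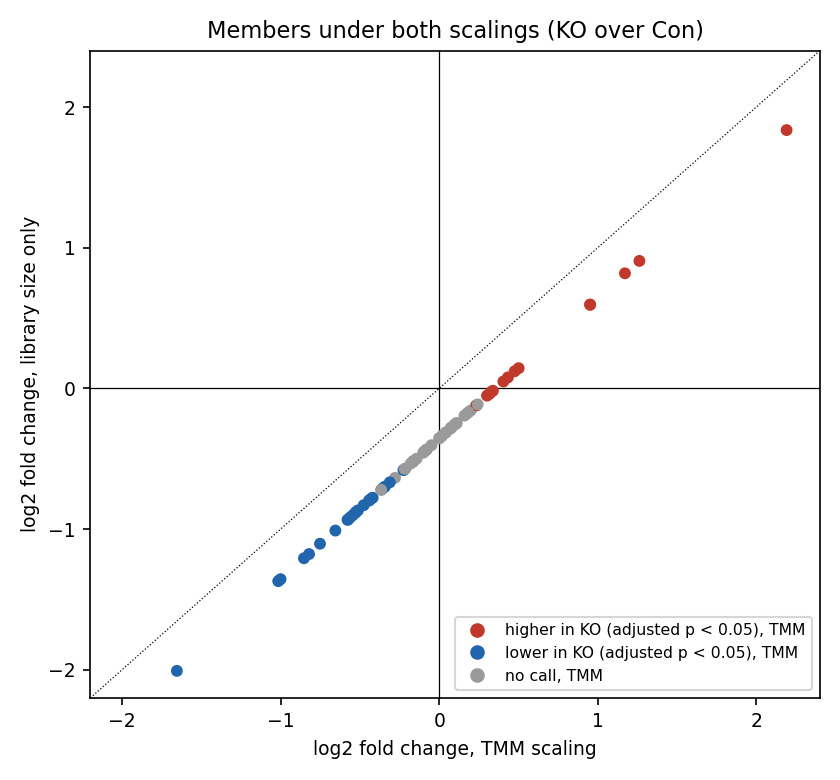
log2 fold change of KO over Con for the 73 members with library size as the only scaling (vertical axis) against the same after TMM scaling (horizontal axis), coloured by the TMM call. The points run parallel below the dotted line of equal values, and Mrpl33, Mrpl48, Mrps21, Tomm34 and Timm10b are the 5 that pass as higher under both. With library size only, 52 members pass as lower, and so do 53.55% of all genes tested.

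Members with a longer coding sequence tended to be lower. Across the 73 genes the Spearman correlation of log2 fold change with coding length (principal isoform of GENCODE M21) was -0.40, and across the 52 ribosomal genes -0.42, or -0.36 without Mrpl33 and Mrpl45. It was -0.20 across the 18 import genes, -0.29 across 32 genes of cytoplasmic ribosomal proteins and -0.12 across 8200 genes tested. The genes share the same 6 libraries, with their depth and cell mixture, so these values describe the lists and carry no test. Of 23 members under 450 coding bases 7 were higher and 5 lower. Of 31 members of 450 bases or more but under 900, 6 were higher and 8 lower. Of 19 members of 900 or more bases, Tomm34 was higher and 12 were lower. Among all genes tested the same classes held 56.1% higher and 23.1% lower, 45.0% and 36.0%, and 36.4% and 46.2%. The correlation with the length of the 3′ untranslated region was weaker, at -0.14 across members and -0.09 across all genes. That with transcript length was -0.29 across members and -0.13 across all genes. Across the ribosomal genes it was -0.22, or -0.15 without Mrpl33 and Mrpl45. With mean CPM it was 0.33 across ribosomal, -0.31 across import and 0.10 across all genes. With GC content of the transcript it was 0.02, 0.48 and 0.06 across the same 3 lists. A canonical AATAAA signal lay in the last 40 transcript bases of 53.4% of members and 62.8% of tested genes, and members with it had a median log2 fold change of -0.08, against -0.10 for those with neither AATAAA nor ATTAAA.

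**Figure D5:**
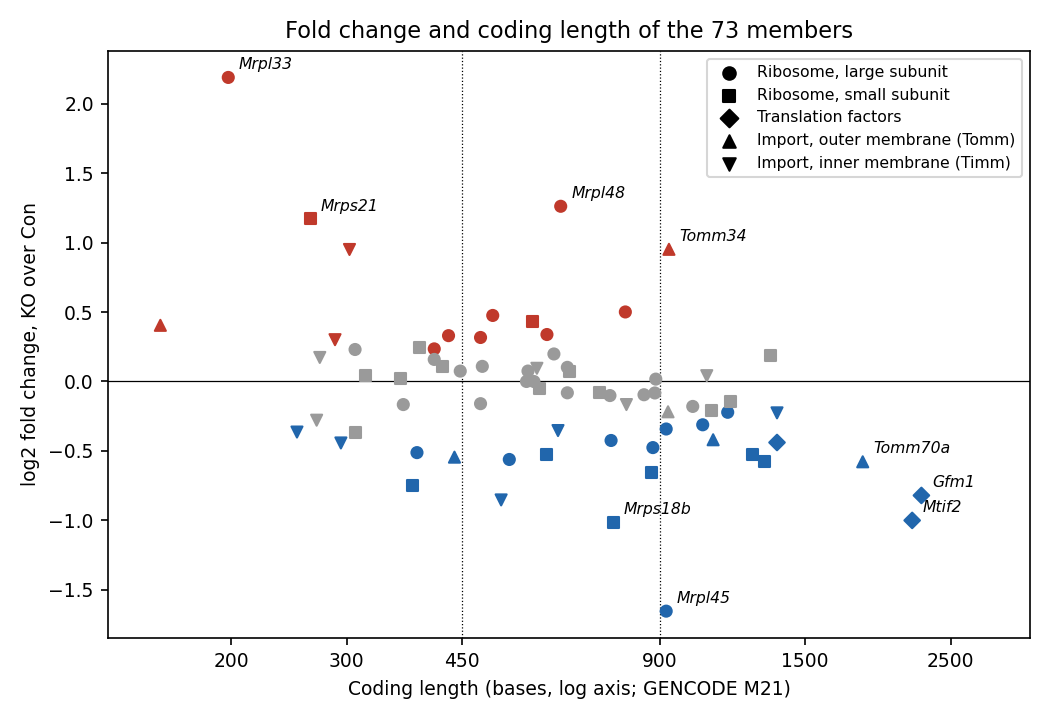
log2 fold change of KO over Con after TMM scaling (vertical axis) against coding length in bases (horizontal log axis) for the 73 members, with shapes for the 5 groups, red for higher, blue for lower and grey for no call. Dotted lines mark 450 and 900 bases, and to the right of 900 Tomm34 is the one red point beside 12 blue ones.

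Per kilobase of coding sequence, Mrpl33 had the highest level of the ribosomal genes in both groups, at 1011 CPM per kb in KO and 221 in Con. The median ribosomal gene was at 64.1 CPM per kb in KO and 66.9 in Con. Among import genes Tomm5 led in KO at 371 CPM per kb, and Tomm20 led in Con at 511. These ranks depend on the length used. Per kilobase of transcript, Mrpl33 was at 419 CPM in KO and 91.7 in Con, where Mrps21 was at 105. Timm23 then led the import genes, at 102 CPM per kb in KO and 130 in Con.

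Of the members, 66 had a promoter in the RefSeq table. The NRF1 motif GCGCNTGCG occurred on either strand in 16 of them (24.2%), in 14.0% of the 6673 tested genes with a promoter and in 7.12% of all 27025 promoters. The ETS motif CCGGAAGT occurred in 15 (22.7%), against 8.80% and 4.31%, and the YY1 motif AAGATGGCG in 7 (10.6%), against 3.43% and 1.64%. Matches of the YY1 motif sat close behind the start in 5 of the 7. The E-box CACGTG bound by MYC occurred in 6 (9.09%), against 11.9% and 8.09%, and the SP1 motif GGGGCGGGG in 11 (16.7%), against 23.4% and 12.9%. Matches of NRF1 on the 2 strands can overlap, and a promoter was counted once for each motif. Members with an NRF1 match had a median log2 fold change of -0.04, against -0.10 for those without, and members with an ETS match -0.17, against -0.08. The gaps were wider for the other motifs, at -0.37 with an SP1 match (11 members) against 0.00 without, -0.31 with an E-box (6 members) against -0.08, and 0.08 with a YY1 match (7 members) against -0.14. Across all tested genes with a promoter the medians were -0.12 with an NRF1 match and -0.055 without, and -0.11 with an ETS match and -0.06 without. They were -0.02 with an SP1 match and -0.08 without, -0.26 with an E-box and -0.04 without, and -0.07 with a YY1 match and -0.06 without. An NRF1 match lay in 5 of the 14 members that were higher and in 5 of 23 with a promoter that were lower.

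Among the regulators known for these motifs, Nrf1 was higher and Myc lower in KO. Nrf1 was at 73.8 ± 7.29 CPM in KO and 39.6 ± 1.62 CPM in Con (log2 fold change 0.90, adjusted p = 1.46e-05), and Myc at 62.1 ± 3.29 and 179 ± 8.02 CPM (-1.53, adjusted p = 1.75e-07). Gabpa, the DNA-binding subunit of GABP, was at 94.2 ± 3.90 CPM in KO and 81.8 ± 4.24 CPM in Con (0.20, adjusted p = 0.0388), but at -0.15 with library size only (adjusted p = 0.143). The Gabpa call was lost in 9 of the 17 alternatives, with upper-quartile scaling (adjusted p = 0.216) and each single Con library left out among them (0.0513 to 0.152). The coactivator gene Pprc1 was lower (-0.90, adjusted p = 0.000111). Of 6 such regulators tested, 2 were higher, 3 lower and 1 neither, where 39.6% of all genes tested were higher and 42.4% lower. The median ribosomal gene stood at -0.02 after TMM scaling, at 0.03 with RLE factors and at -0.38 with library size only. Any link between these regulators and the ribosomal genes was not tested.

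Assembly and partner genes of the mitochondrial ribosome also went both ways. Of 13 assembly factors tested 4 were higher and 7 lower (53.8% lower, against 42.4% of all genes tested). Rbfa, a maturation factor of the small subunit, was at 165 ± 9.20 CPM in KO and 44.0 ± 1.52 CPM in Con (1.91, SE 0.08, adjusted p = 4.8e-08), and the GTPase gene Noa1 was higher by 0.51 (adjusted p = 0.000546; 0.16 with library size only). Fastkd2 (-0.76, adjusted p = 0.000233) and the helicase gene Dhx30 (-0.40, adjusted p = 0.00135), both of the large-subunit assembly granules, were lower. Of 5 other translation genes 3 were lower and none higher, among them Lrpprc, which stabilises mitochondrial messenger RNA (-0.63, adjusted p = 0.000143), and the release factor gene Mtrf1 (-0.77, adjusted p = 0.00214). Mitochondrial transcription genes included Polrmt, the RNA polymerase (-0.83, adjusted p = 0.000295), and its elongation factor gene Tefm (-1.32, adjusted p = 3.98e-05), while Tfam was at 47.8 ± 1.71 CPM in KO and 54.7 ± 4.67 CPM in Con (-0.20, adjusted p = 0.0699). Mterf1b was higher in that list (0.55, adjusted p = 0.00891; adjusted p = 0.301 with library size only), and 2 of its 5 genes were lower.

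Of 19 import genes with other names 10 were lower (52.6%) and 1 higher (5.26%), where 42.4% of all genes tested were lower and 39.6% higher. Hspa9, the mitochondrial Hsp70 that drives import through TIM23, was at 317 ± 17.9 CPM in KO and 764 ± 32.6 CPM in Con (-1.27, SE 0.08, adjusted p = 6.41e-07). Pmpca, a subunit of the peptidase that removes presequences, was at 96.7 ± 9.11 CPM in KO and 184 ± 6.14 CPM in Con (-0.93, adjusted p = 7.28e-06). The motor subunit gene Dnajc19 was the one that rose (0.58, adjusted p = 0.000403; adjusted p = 0.0766 with library size only). Proteases and stress genes of mitochondria included 5 lower and none higher of 7. Lonp1, the matrix protease, was at 64.9 ± 3.20 CPM in KO and 241 ± 19.0 CPM in Con (-1.89, adjusted p = 7.89e-08), and the stress factor gene Atf5 was at -1.92 (adjusted p = 1.83e-07). Of 4 mitophagy genes, Pink1 (1.47, adjusted p = 9.15e-07) and Fkbp8 (0.43, adjusted p = 0.000353; adjusted p = 0.395 with library size only) were higher and the hypoxia-inducible Bnip3 lower (-3.14, adjusted p = 1.51e-08).

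For comparison, 2 other lists of nuclear genes were counted in the same fit. Of 34 cytoplasmic ribosomal protein genes 21 were higher and 1 lower in KO (median 0.40), and of 39 genes of respiratory chain and ATP synthase subunits 24 were higher and 4 lower (median 0.47). Of all genes tested, 39.6% were higher and 42.4% lower. Scaling by library size alone left 8 higher and 7 lower of the first list (median 0.04) and 17 higher and 11 lower of the second (median 0.11). Those of the ribosomal members were then 3 and 36, and those of the import members 2 and 13. Of all genes tested, 29.8% were then higher and 53.55% lower. The difference between the lists was not tested.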

How the data were processed

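The authors deposited 1 table of expected counts for each gene, without scaling, with a column for each of the 6 libraries, per the file headers. Some values are not whole (9 of the 73 members), and all were rounded before testing. RNA was extracted with TRIzol from bone marrow and libraries were made with a BGI mRNA kit, per the labels' protocols. GRCh38, a human build, is named in the submitters' processing notes, while IDs and symbols are those of mouse. The aligner, the counter and the use of strand were not given in the sources used here, so reads of overlapping genes (25 members) or close copies cannot be told apart. All columns were used (0 left out).

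edgeR 4.0.16 in R 4.3.3 (TMM, filterByExpr by group, robust quasi-likelihood test, two-sided, no covariate) compared KO with Con over 8358 genes, with Benjamini-Hochberg adjustment. The script was tested on simulated data. CPM are counts over library size times TMM factor, and errors are SD. The labels do not call the libraries of a group separate animals, so the spread behind the p-values may be technical. Alternatives were 4 other scalings, DESeq2 1.42.0, limma-voom 3.58.1, a fit that is not robust, no filter, a mean count of at least 50, leaving out each library, summing Con replicates 2 and 3, and a replicate block. Same-numbered libraries did not deviate together (correlations of 0.00, 0.03 and 0.00).

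The genes described with single values are all factors, the 4 highest and 4 lowest called members of Mrpl, Mrps and import genes, 8 channel and receptor subunits, the 2 genes of smallest p per direction in each pathway list, and Papola. Others were chosen after their values were seen. The members and lists were chosen with earlier results of these data known. Promoters came from RefSeq and lengths from GENCODE M21.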

Additional observations from a re-analysis of the deposited data

How the results depend on the processing

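Among the 73 members, 21 were lower and 5 higher in KO under the TMM fit and all 17 alternatives, 12 and 3 of them ribosomal, 6 and 2 import genes, and 3 and 0 translation factors. The same count was not made over all genes tested, so whether members were more or less stable is not known. Library size only was the setting that changed most. It gave 3 ribosomal genes higher and 36 lower, 2 import genes higher and 13 lower, and median log2 fold changes of -0.38 for the ribosome, -1.18 for the factors, -0.58 for import and -0.41 for all genes. Over all genes tested it called 29.8% higher and 53.55% lower. Its share of higher genes among all those called was 35.7%, against 48.3% under TMM. Among the genes singled out by rule it reversed the sign of Papola (-0.13), Timm13 (-0.0517), Timm50 (-0.31), Timm22 (-0.26) and Gabpa (-0.15), where the cause was not tested. Of the 73 members, 64 lay below 0 with library size only, against 41 under TMM. Upper-quartile scaling gave medians of -0.11 for the ribosome, -0.31 for import and -0.14 for all genes. The median of all genes was 0.00 with RLE factors (-0.0036) and DESeq2 (-0.0033), -0.0502 with TMM factors computed without the late neutrophil and erythroid lists, -0.0335 with no filter and -0.0487 with Con replicates 2 and 3 summed. The last 2 cover the 9240 and 8419 genes tested there. Over the genes also tested in the TMM fit they were -0.0737 and -0.057, against -0.058 in that fit.

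Leaving out each library in turn gave 9 to 13 ribosomal genes higher and 12 to 14 lower. It gave 3 to 4 import genes higher and 6 to 9 lower, and 3 factors lower each time. The shares over all genes in those fits were 38.07% to 39.36% higher and 38.96% to 42.05% lower. Medians ranged between -0.09 and 0.04 for the ribosome, -0.26 and -0.19 for import, -0.89 and -0.77 for the factors and -0.0627 and -0.0233 for all genes tested in each. With the replicate number as a block, 9 ribosomal genes were higher and 13 lower, and 4 import genes higher and 8 lower. That fit called 39.1% of all genes tested higher and 41.8% lower. Same-numbered libraries share only a number. Of the 52 genes singled out by rule, 39 kept direction and call with library size only, and 48 or more under each other setting.

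With 3 libraries a group, small changes can be missed, so a member without a call is not shown to be equal between the groups. Single-gene values with overlapping neighbours (25 members) and the cell markers that moved with the groups limit the rest, and their part was not tested.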
